A study of Mus musculus with 13 samples.

Results

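The SLC25 family comprises the carriers that move metabolites across the inner membrane of the mitochondrion, and its members were compared between gastrocnemius muscle of mice that carried a UCP1 transgene and of their wild-type littermates. Members were the probes of the arrays whose gene name was Slc25a followed by a number, apart from Slc25a4 and Slc25a5, the adenine nucleotide translocases, which were left out. This gave 50 probes for 42 carriers, of 55681 probes and 34797 gene names on the array. For 31 of the 42 carriers, with 38 probes, at least 1 probe was well above background on at least 6 of the 13 arrays, and these 31 were tested. The same filter kept 17257 genes of the whole array.

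SLC25 proteins are nuclear encoded and, for the most part, exchange a substrate of the matrix for one of the cytosol, so they connect the citric acid cycle, amino acid breakdown, fatty acid oxidation, cofactor supply and ATP synthesis with the rest of the cell. Each repeat of the protein carries a signature with a proline, an acidic residue and a basic residue at fixed distances. UCP1, the uncoupling protein of brown fat, belongs to the same family and opens a path for protons into the matrix that bypasses ATP synthase. The study placed it in muscle, where it is not normally made, and was interested in a shortage of amino acids and in signalling through the hormone FGF21.

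All 13 mice were male C57BL/6J, compared from the age of 12 weeks and kept for 12 weeks on a low fat diet of purified ingredients. The wild-type (WT) group had 6 mice without the transgene and the UCP1 transgenic (UCP1-TG) group 7 littermates that carried it. Which promoter drives the transgene is not stated in those labels. The gastrocnemius was taken whole, so a level belongs to all cells of the muscle, and fewer cells of a type cannot be told apart from less RNA per cell.

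RNA of each mouse, labelled with Cy5, was hybridised on 1 array beside a reference pool labelled with Cy3. A level is therefore given as the log2 ratio of mouse to pool, which can be compared between mice for 1 probe but not between probes. A difference is UCP1-TG minus WT on that log2 scale, so 1 unit is a factor of 2. Its error is the standard error (SE) of the limma fit. A carrier was called higher or lower where the p-value, adjusted over all 17257 genes with the Benjamini-Hochberg method, was under 0.05.

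Between 37.1% and 43.2% of probes per array were well above background, and no spot was saturated. Ucp1 read 0.45 on the array labelled wild type 4, against that label and inside the transgenic range of -0.20 to 0.85, while the other 5 wild-type arrays read -4.23 to -2.82. The mean log2 ratio of 3 measured brown adipocyte markers (Cidea, Zic1 and Dio2) was 0.72 on that array. It was -0.87 to -0.37 on the other wild-type arrays and at most 0.05 in UCP1-TG. The difference between the groups had an SE of 0.44 for Cidea, 0.07 for Zic1 and 0.10 for Dio2. The mean may therefore rest mostly on Cidea, and single markers are not given for that array. For the mitochondrial folate and glycine enzymes listed further on, the mean of that array, -0.53, lay with WT (-0.57 to -0.42) and below UCP1-TG (0.05 to 0.28). That list was chosen with earlier results of these data known, and Mthfd2 (3.63) has its widest difference. Its mean is therefore no independent check of the label. Carrier values are given with this array, and without it where that changes a call. Of 10 skeletal muscle markers, all well above background on every array, 6 were lower in UCP1-TG, among them Acta1 and Myh4, and 1, Myh1, was higher, where 16.1% of all genes were called lower and 16.9% higher. With arrays centred on their median in place of loess, 0 of the 10 were called lower by limma and 2 had an unadjusted p under 0.05 in that direction. That setting moved the median difference of all genes to 0.14. Centring over kept probes only, chosen after seeing the data, left that median at -0.0038 and called 5 of the 10 lower. Of 6 white adipocyte markers 5 were measured and all 5 were higher, with a mean log2 ratio from -0.86 to -0.09 in WT and from -0.28 to 0.58 in UCP1-TG, while no array had Lep well above background. Of 4 blood markers 3 were higher, with a mean log2 ratio from -0.66 to -0.04 in WT and from -0.32 to 0.62 in UCP1-TG. Median centring left 1 of these 3 blood calls, and centring over kept probes only called 3 of the 4 blood markers higher. The adipocyte markers as a covariate left 0 blood calls by limma, with 0 at an unadjusted p under 0.05.

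Most carriers differed little between the groups. Of the 31 tested, 2 were higher in UCP1-TG (Slc25a39 and Slc25a38), against 16.9% of all genes called higher, and 6 were lower (among them Slc25a25, Slc25a28, Slc25a16, Slc25a47 and Slc25a36), against 16.1% of all genes called lower. These counts correspond to 6.45% and 19.4% of the tested carriers, and 8 of 31 were called in either direction against 33% of all genes. The median difference of the carriers was 0.03, and that of all genes was -0.0010. The median size of the difference without its sign was 0.07 for carriers and 0.14 for all genes. Only 1 carrier in each direction was called with a difference of at least 0.5, Slc25a39 upward, where 3.87% of all genes lay, and Slc25a25 downward, where 4.33% lay. The groups did not overlap for 5 of the 31 carriers, against 14.7% of all genes. UCP1-TG lay above for 2 of them (7.47% of all genes) and below for 3 (7.26%).

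**Figure D1:**
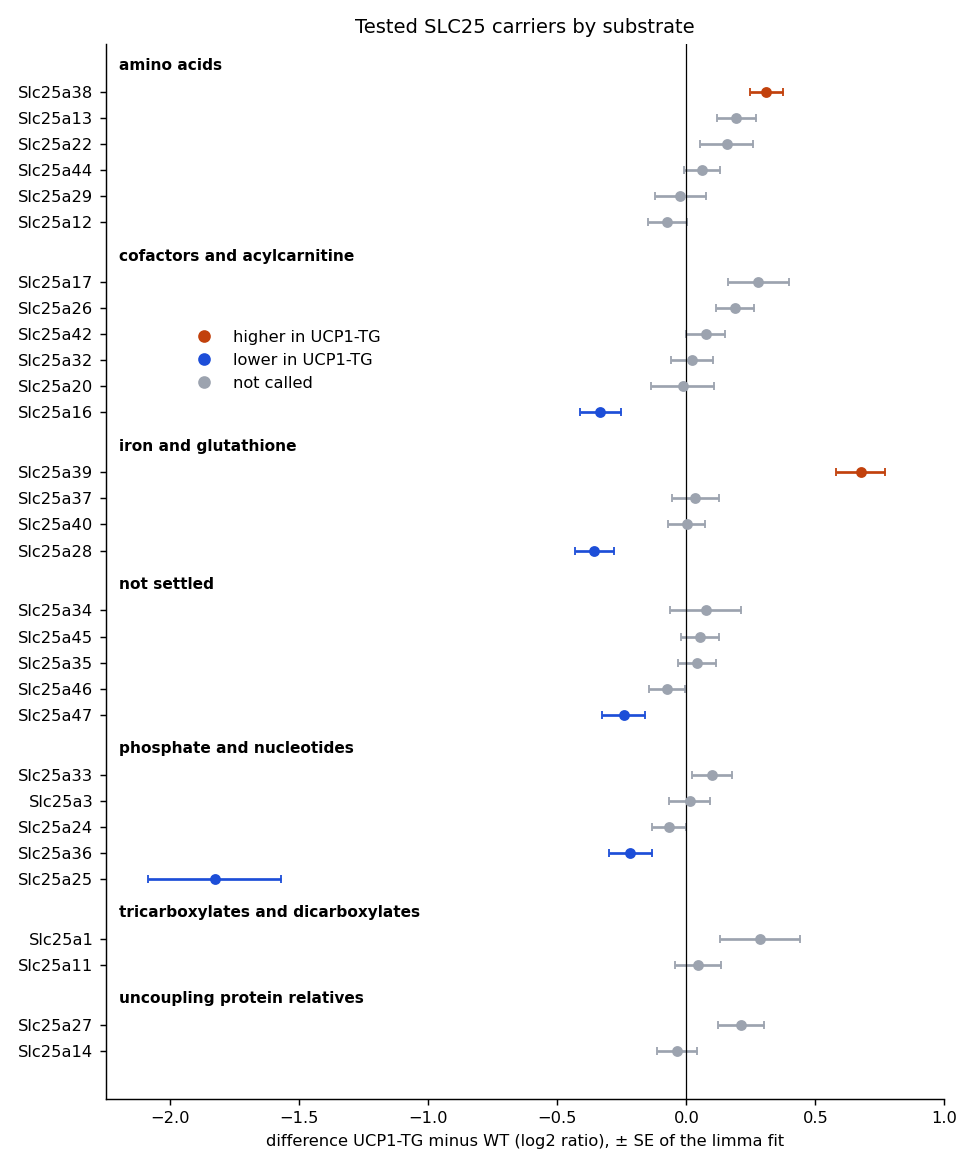
Difference UCP1-TG minus WT in log2 ratio (x axis) of 30 tested carriers (y axis), grouped by known substrate. Points are limma estimates from 6 WT and 7 UCP1-TG arrays, bars are the SE, and colour gives the call. Slc25a25 lies at -1.83 and Slc25a39 at 0.67, while the other 28 shown lie between -0.36 and 0.31.

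The 23 carriers that were not called had differences from -0.07 to 0.28, 17 of them above 0 and 6 below. Their SE was 0.07 to 0.15, and 21 of the 23 differences were under 0.25 in size. A missed threshold does not show that these carriers were equal in both groups.

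Carriers of phosphate and nucleotides held the widest difference of the family. Slc25a25 is a calcium-dependent carrier that exchanges ATP-Mg for phosphate and thereby alters the adenine nucleotide content of the matrix. Its log2 ratio was 0.19, 1.11, 1.47, 0.35, 1.54 and 1.34 in WT arrays 1 to 6. In UCP1-TG arrays 1 to 7 it was -0.57, -0.80, -0.29, -0.13, -1.90, -1.27 and -0.87. Every transgenic array lay below the pool and every wild-type array above it, with WT 1 and WT 4 the lowest of their group and UCP1-TG 5 the lowest of all. The difference was -1.83 ± 0.26 (SE), a 3.55-fold lower level in UCP1-TG (limma, adjusted p = 1.7e-05). Within the 4 slides, which were also the scans, it was -0.88, -1.57, -1.36 and -2.51, and without the array labelled wild type 4 it was -1.96.

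The array held a separate probe for the same transcript of Slc25a25, also on the reverse strand of chromosome 2 (mm9). The brighter probe, which stands for the gene, matched chr2:32270275-32270334 and the other chr2:32270490-32270549. The other probe gave 0.02 to 1.32 in WT and -1.82 to -0.21 in UCP1-TG, again without overlap. Its difference was -1.66 ± 0.25 (SE, adjusted p = 5.2e-05 when every kept probe was tested on its own).

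Other carriers of this group differed less. Slc25a36, a carrier of pyrimidine nucleotides, had -0.01, 0.08 and 0.28 as lowest, median and highest log2 ratio in WT, and -0.53, -0.07 and 0.04 in UCP1-TG. The groups overlapped, and the lowest value came from UCP1-TG 2. The difference was -0.22 ± 0.08 (SE, limma adjusted p = 0.0497), close to the threshold, and the adjusted p was 0.056 without the array labelled wild type 4. Leaving out single arrays gave an adjusted p of 0.033 to 0.12, with 3 of 13 such fits still past the threshold.

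Slc25a3, which imports the phosphate used by ATP synthase, had a difference of 0.01 on its brighter probe and 0.12 on the other, neither called. Slc25a24, which carries the same substrates as Slc25a25, had -0.07 ± 0.07 (SE), with -0.20 to 0.20 in WT and -0.17 to 0.04 in UCP1-TG. Slc25a33, a pyrimidine nucleotide carrier like Slc25a36, had a difference of 0.10 on its brighter probe, which was not called. Its dimmer probe gave -0.40 to 0.24 in WT and -0.09 to 0.34 in UCP1-TG, and a difference of 0.28 that was called higher when probes were tested singly (adjusted p = 0.036). That probe is shown because it alone gave a call for Slc25a33. It matches chr4:149123432-149126565 on the reverse strand (mm9), a span of 3134 bases for 60 letters, so it crosses at least 1 intron. Capitals mark the 18 letters with the proline and basic codons of the family signature at their usual spacing, with another codon in the acidic place.
Slc25a33 probe: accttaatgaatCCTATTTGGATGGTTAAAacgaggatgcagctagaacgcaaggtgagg

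Promoters of the tested carriers were searched for motifs in the 250 bases upstream of each RefSeq start (GRCm38.p6), on both strands and each motif by itself whether or not it overlapped another. RefSeq windows were at hand for 23 of the 31 carriers, 29 windows in all. The cyclic AMP response element TGACGTCA stood in 2 of these 29 windows and in 1.55% of all 32851 windows. Those windows belong to Slc25a25 and Slc25a36, both lower in UCP1-TG, and are shown for that reason. The element of C/EBP and ATF factors, TGATGNAA, was in 0 of the 29 windows and in 3.45% of all. CACGTG was in 6 of the 29 (Slc25a1, Slc25a13, Slc25a14, Slc25a33 and Slc25a36) and in 6.02% of all, and TCAAGGTCA in 0 and in 0.387%. A match describes letters only.

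Both windows are on the reverse strand and are printed in the direction of the gene, with TGACGTCA in capitals. The window of Slc25a25, at chr2:32424067-32424316 (GRCm38.p6), is 1 of 3 for the gene, and its match begins 150 bases upstream of the start. The window of Slc25a36, at chr9:97111042-97111291 (GRCm38.p6), is its only one, and its match begins 161 bases upstream.
Slc25a25 promoter: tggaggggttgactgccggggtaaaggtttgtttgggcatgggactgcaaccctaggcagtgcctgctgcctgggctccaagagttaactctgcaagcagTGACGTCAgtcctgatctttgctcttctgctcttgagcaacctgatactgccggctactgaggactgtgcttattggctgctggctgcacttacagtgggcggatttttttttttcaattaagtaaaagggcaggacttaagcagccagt
Slc25a36 promoter: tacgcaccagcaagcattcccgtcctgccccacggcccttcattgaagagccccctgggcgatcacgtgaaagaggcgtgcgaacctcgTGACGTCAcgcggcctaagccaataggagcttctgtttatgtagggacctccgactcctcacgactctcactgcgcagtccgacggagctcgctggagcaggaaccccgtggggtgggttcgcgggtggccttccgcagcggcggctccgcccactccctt

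Carriers of glutathione and iron moved in both directions. Slc25a39 takes glutathione, the main thiol antioxidant of the cell, into the matrix. Its log2 ratio was -0.30, -0.81, -0.56, -0.29, -0.47 and -0.28 in WT arrays 1 to 6. In UCP1-TG arrays 1 to 7 it was 0.03, 0.04, 0.18, 0.18, 0.51, 0.35 and 0.28. All transgenic arrays lay above the pool and all wild-type arrays below it, with WT 2 the lowest and UCP1-TG 5 the highest. The difference was 0.67 ± 0.10 (SE), a 1.60-fold higher level in UCP1-TG (limma, adjusted p = 1.8e-05). It was 0.33, 0.86, 0.63 and 0.69 within the slides and 0.71 without the array labelled wild type 4.

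Slc25a39 had 1 probe, shown because this rise rests on it. It matches chr11:102266350-102267022 on the reverse strand (mm9), a span of 673 bases for 60 letters, so it crosses at least 1 intron, and no stretch is in capitals.
Slc25a39 probe: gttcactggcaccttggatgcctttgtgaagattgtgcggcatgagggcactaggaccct

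Slc25a40, which carries glutathione as well, had a difference of 0.0011 ± 0.07 (SE), with -0.13 to 0.06 in WT and -0.25 to 0.15 in UCP1-TG. Slc25a28, mitoferrin 2, brings iron to the matrix for heme and iron-sulfur clusters. It was lower in UCP1-TG, with -0.10, 0.16 and 0.37 as lowest, median and highest log2 ratio in WT and -0.33, -0.21 and -0.10 in UCP1-TG. The groups did not overlap, but the lowest wild-type array lay next to the highest transgenic one. The difference was -0.36 ± 0.08 (SE, limma adjusted p = 0.0011). Slc25a37, mitoferrin 1, which is known for its role in red cell precursors, had 0.03 on its brighter probe and -0.14 on the other, neither called. Slc25a39, Slc25a38 and Slc25a37 are prominent in red cell precursors, and the blood markers Hba-a1 (0.61), Hbb-b1 (0.68) and Alas2 (0.62) were higher in UCP1-TG while Slc4a1 had a difference of -0.12 and was not called. The part of blood in the rise of Slc25a39 and Slc25a38 was not tested.

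**Figure D2:**
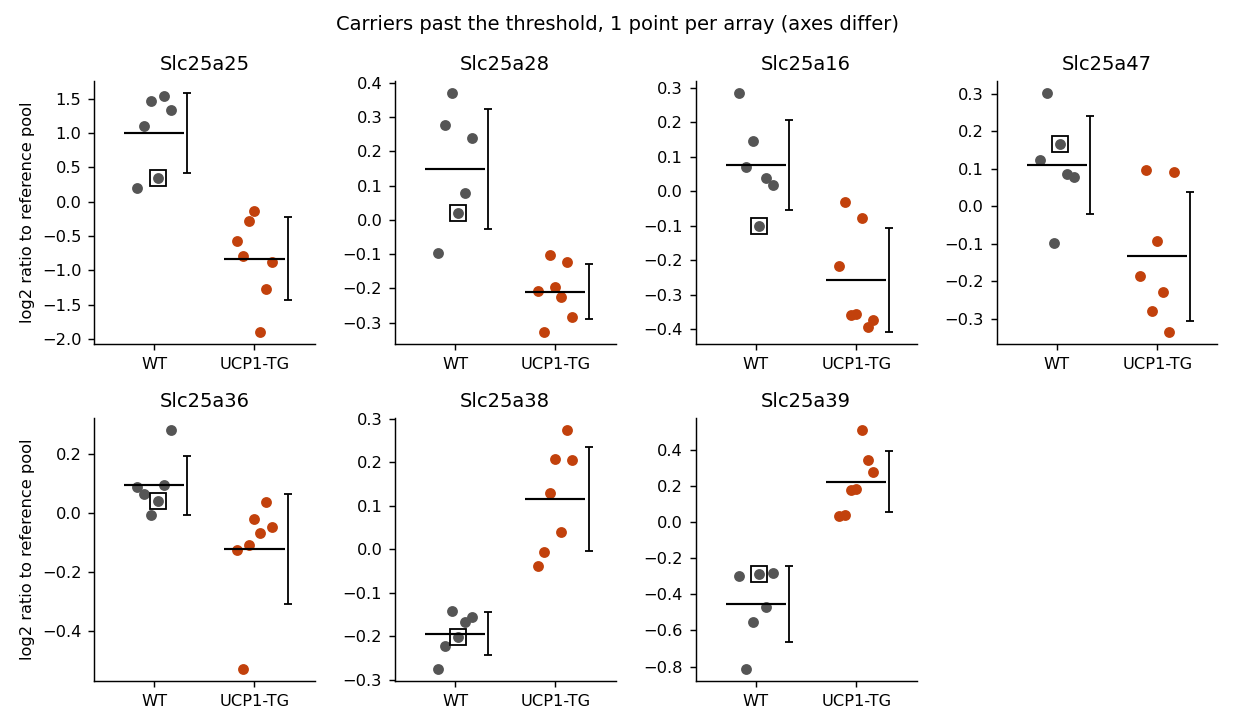
Log2 ratio to the reference pool (y axis) of 7 called carriers, 1 point per array, for 6 WT and 7 UCP1-TG arrays (x axis), with the group mean as a line and the SD as a bar beside it. The square marks the array labelled wild type 4. The groups do not overlap for Slc25a25, Slc25a28, Slc25a38 and Slc25a39, and they overlap for Slc25a16, Slc25a47 and Slc25a36.

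Among the 6 tested carriers of amino acids, Slc25a38 alone was called. It brings glycine into the matrix, where glycine is the substrate for the start of heme synthesis. Its log2 ratio was -0.28, -0.18 and -0.14 as lowest, median and highest in WT and -0.04, 0.13 and 0.27 in UCP1-TG. All wild-type arrays lay below all transgenic ones, and the wild-type values were close together. The difference was 0.31 ± 0.06 (SE), a 1.24-fold higher level (limma, adjusted p = 9.5e-04).

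Slc25a13 and Slc25a12 exchange aspartate for glutamate in the malate-aspartate shuttle, and neither was called in the fit reported. Slc25a13 had a difference of 0.19 ± 0.08 (SE) and was a dim probe, well above background on 2 of 6 WT and 7 of 7 UCP1-TG arrays. Slc25a13 was called with the slide as a random block (adjusted p = 0.039) or fixed block (0.0499), with the mean over kept probes (0.0495), with no normexp offset (0.027), and without UCP1-TG 4 (0.038) or UCP1-TG 5 (0.024). Other settings did not call Slc25a13 by limma. Among them were the authors' value table (0.08, adjusted p = 0.68) and centring over kept probes only (0.05, 0.82). The adipocyte covariate (0.17, 0.51) and the replicate block (0.18, 0.12) did not call it either. It was not tested where probes had to be well above background on all arrays. Slc25a12, the form known from muscle and brain, had -0.07 ± 0.08 (SE). Slc25a22, a glutamate carrier, had 0.16. Slc25a44, a carrier of branched-chain amino acids, had 0.06, and Slc25a29, a carrier of basic amino acids, had -0.02.

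Of the 7 carriers of cofactors and acylcarnitine, 2 were lower in UCP1-TG, among them Slc25a16, which has been linked to coenzyme A transport. Its log2 ratio was -0.10, 0.05 and 0.28 as lowest, median and highest in WT and -0.39, -0.36 and -0.03 in UCP1-TG. The groups overlapped through the array labelled wild type 4, the lowest of its group, and UCP1-TG 2 and 5. The difference was -0.33 ± 0.08 (SE, limma adjusted p = 0.0026). Slc25a42, a coenzyme A carrier, had 0.07 ± 0.07 (SE) and was not called.

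The other 4 carriers of cofactors were not called either. Slc25a20, which exchanges carnitine for acylcarnitine and so admits long-chain fatty acids to oxidation, had -0.02 ± 0.12 (SE). Slc25a32, a carrier linked to folate and FAD, had 0.02. Slc25a17, a carrier of coenzyme A and nucleotides that sits in peroxisomes, had 0.28 ± 0.12 (SE) and was called without the array labelled wild type 4 (0.37, adjusted p = 0.012) and without UCP1-TG 6 (0.34, adjusted p = 0.030). With the adipocyte markers as a covariate the difference of Slc25a17 turned to -0.09 and was not called.

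Slc25a26, the S-adenosylmethionine carrier, had 0.19 ± 0.07 (SE) on its brighter probe and -0.01 on the other, neither called, although the brighter one passed without WT 1, WT 5 or UCP1-TG 6 (0.21 to 0.22). The second probe is shown because the probes differ in direction. It matches chr6:94548392-94549185 on the forward strand (mm9), a span of 794 bases for 60 letters, and capitals mark the 18 letters with the proline, acidic and basic codons of the family signature at their usual spacing.
Slc25a26 probe: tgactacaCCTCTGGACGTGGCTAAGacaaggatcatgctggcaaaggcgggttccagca

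Carriers of citrate and dicarboxylates were not called. Slc25a1, which exports citrate for fatty acid synthesis, had -0.73 to 0.32 in WT and -0.38 to 0.32 in UCP1-TG and a difference of 0.28 ± 0.15 (SE). Within the slides it read 0.65, 1.02, -0.51 and -0.11, so the slides disagreed in direction. Without the array labelled wild type 4 it was 0.41 and was called (adjusted p = 0.027). With the white adipocyte markers as a covariate the difference was -0.54 and was not called (adjusted p = 0.063), so its direction turned. Slc25a11, which exchanges 2-oxoglutarate for malate, had 0.04 ± 0.09 (SE).

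Relatives of the uncoupling proteins were not called: Slc25a27 (UCP4) had 0.21 ± 0.09 (SE) and Slc25a14 (UCP5) -0.04. With a fixed block for the slide Slc25a27 passed by limma (0.27, adjusted p = 0.0047). It also passed with the slide as a random block (adjusted p = 0.026) and with Agilent's own log ratio (0.0024). The same held without UCP1-TG 1 (0.047) or UCP1-TG 2 (0.011). Other settings did not call Slc25a27 by limma. Among them were Cy5 alone (adjusted p = 0.20), the authors' value table (0.13) and no normexp offset (0.10). The replicate block (0.12) and the adipocyte covariate (0.061) did not call it either, nor did the fit without UCP1-TG 3 (0.15). Among carriers whose substrate is not settled, Slc25a47, known from liver, was lower by limma, with -0.10, 0.10 and 0.30 as lowest, median and highest log2 ratio in WT and -0.34, -0.19 and 0.10 in UCP1-TG. The groups overlapped, and the difference was -0.24 ± 0.08 (SE, adjusted p = 0.029). It lost the call without the array labelled wild type 4 (adjusted p = 0.053), as it did without WT 2 or UCP1-TG 1, 3, 5 or 6. Slc25a34, Slc25a35 and Slc25a45 had 0.04 to 0.07, and Slc25a46, which sits in the outer membrane, had -0.07.

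The direction of all 8 called carriers was the same in each of the 4 slides. With arrays centred on their median in place of loess, the median of all genes itself moved to 0.14. Under that setting Slc25a39 (0.83) and Slc25a25 (-1.57) kept their calls and the other 6 did not, while all 8 kept their sign. Relative to the median of all genes the values under that setting were 0.68 for Slc25a39, 0.40 for Slc25a38, -0.27 for Slc25a28, -0.30 for Slc25a16, -0.23 for Slc25a47, -0.19 for Slc25a36 and -1.71 for Slc25a25. With the adipocyte markers as a covariate, Slc25a39, Slc25a38 and Slc25a25 kept their calls and the other 5 did not. The SE was larger in that fit. Among these 5, Slc25a16 read -0.30 ± 0.15 (SE) and Slc25a47 -0.32 ± 0.16, while Slc25a28 read -0.18 ± 0.13 and Slc25a36 -0.09 ± 0.15.

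**Figure D3:**
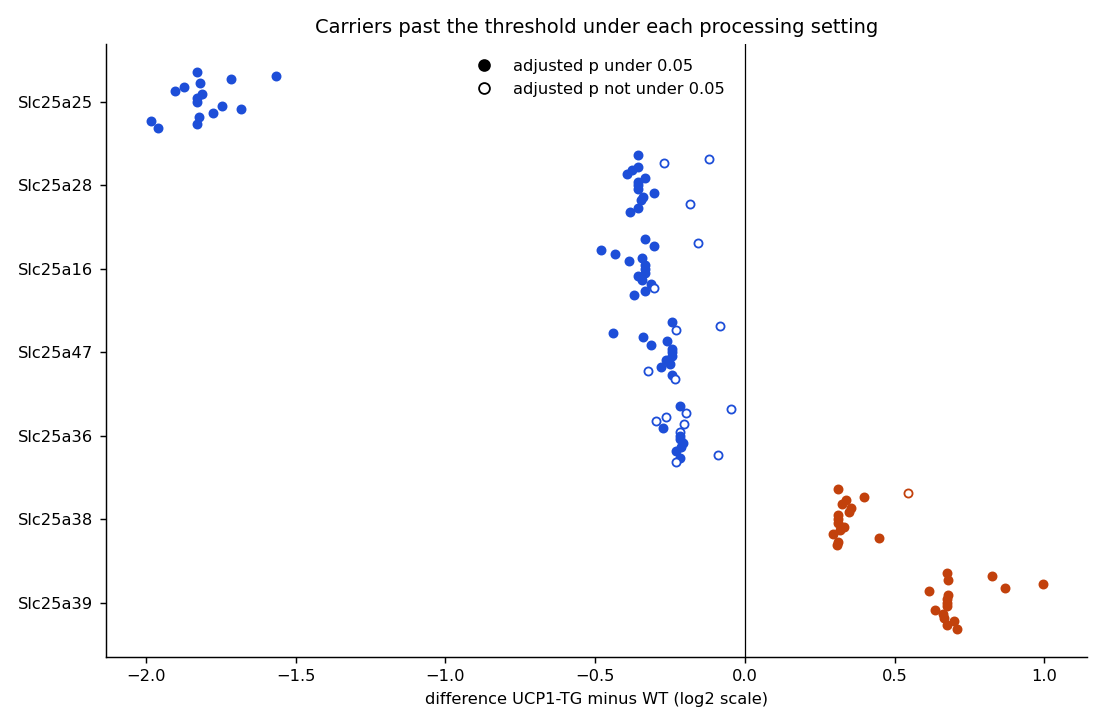
Difference UCP1-TG minus WT on the log2 scale (x axis) of 7 called carriers (y axis) under each processing setting and without the array labelled wild type 4, 1 point per setting, spread vertically for legibility. Filled points have an adjusted p under 0.05. Slc25a25 (-1.98 to -1.57 over 14 alternatives on all arrays) and Slc25a39 (0.62 to 1.00) are filled throughout, and no point changes side.

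Where 2 carriers of the same substrate were both measured, the gap between their log2 ratios was taken within each array and compared between the groups, which gave 6 pairs. Only carriers with an identical substrate entry were paired. Slc25a17 (coenzyme A and nucleotides of peroxisomes) and Slc25a22 (glutamate) therefore entered no pair. The test was the exact two-sided permutation of group labels over arrays, adjusted over the 6 pairs, with a smallest possible p of 0.000583 before adjustment. For glutathione, Slc25a39 minus Slc25a40 was -0.80 to -0.17 in WT and -0.03 to 0.48 in UCP1-TG, without overlap. The gap differed by 0.67 between the groups (permutation test, adjusted p = 0.0017). For ATP-Mg and phosphate, Slc25a24 minus Slc25a25 was -1.52 to -0.13 in WT and 0.04 to 1.78 in UCP1-TG, again without overlap, and it differed by 1.76 (permutation test, adjusted p = 0.0017). In both pairs 1 carrier differed between the groups while its partner did not pass the test.

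The remaining pairs overlapped between the groups. Slc25a16 minus Slc25a42, the coenzyme A pair, was -0.16 to 0.38 in WT and -0.62 to -0.02 in UCP1-TG, a difference of -0.41 (permutation test, adjusted p = 0.0093). Slc25a33 minus Slc25a36, the pyrimidine nucleotide pair, differed by 0.32 (permutation test, adjusted p = 0.013), from -0.53 to 0.02 in WT and -0.15 to 0.43 in UCP1-TG. Slc25a28 minus Slc25a37, the mitoferrins, differed by -0.39 (permutation test, adjusted p = 0.026), from -0.08 to 0.55 in WT and -0.51 to 0.01 in UCP1-TG. Their highest adjusted p over the alternatives was 0.022, 0.038 and 0.05, the last without WT 3, where the mitoferrin pair was no longer under the threshold. Slc25a12 minus Slc25a13, the aspartate-glutamate pair, differed by -0.27 (permutation test, adjusted p = 0.031). Slc25a13 was not well above background on 4 of the 6 WT arrays, so the gap there rests on signals near background and this p is given for completeness only. That pair turned to 0.043 with median centring in place of loess, and its adjusted p was 0.051, 0.053 and 0.059 without WT 1, WT 3 and WT 5.

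**Figure D4:**
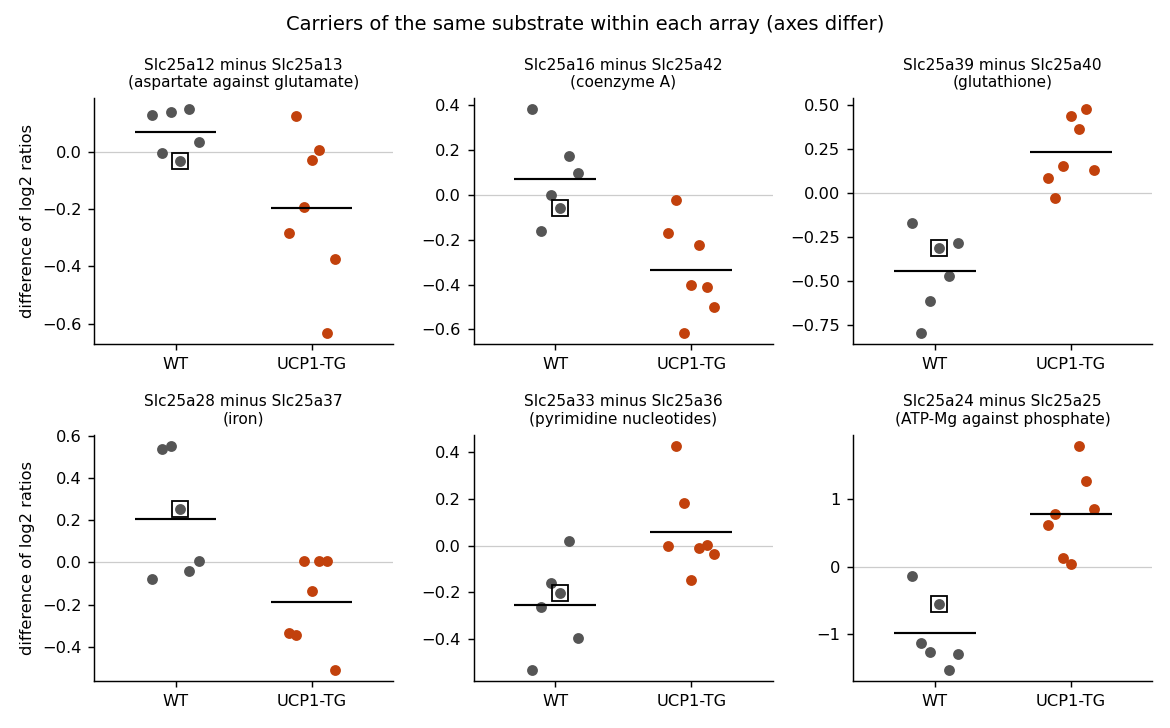
Gap between the log2 ratios of 2 carriers of the same substrate (y axis, first minus second) within each array, for 6 WT and 7 UCP1-TG arrays (x axis), with the group mean as a line and a square around the array labelled wild type 4. The groups do not overlap for Slc25a39 minus Slc25a40 and for Slc25a24 minus Slc25a25, and they overlap for the other 4 pairs.

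Enzymes and transporters that share substrates with the carriers were counted beside them, against the 16.9% of all genes called higher and 16.1% called lower. Of 7 measured mitochondrial folate and glycine enzymes, only some of which use the glycine that Slc25a38 carries, 3 were higher. In front were Mthfd2 (3.63), which oxidises folate-bound one-carbon units in the matrix, and Shmt2 (0.71), which interconverts serine and glycine. The remaining higher gene was well above background on 1 of 6 WT and 7 of 7 UCP1-TG arrays. With probes required to be well above background on all arrays, 2 genes of that list were called higher. Gcat was lower by 0.21 but turned to 0.01 with median centring in place of loess. Of 7 enzymes of glutamate, ornithine and proline, 3 were higher, led by Pycr1 (1.82) and Aldh18a1 (1.78) of proline synthesis, each well above background on 5 of 6 WT and 7 of 7 UCP1-TG arrays, and 2 were lower, among them Oat (-0.26). With Agilent's own log ratio Pycr1 read 3.11 and Aldh18a1 3.43, and with probes required to be well above background on all arrays 1 of the 3 higher calls of that list was left.

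For the shuttles, 1 of 6 enzymes was higher, the cytosolic aminotransferase Got1 (0.68), and 3 were lower, led by the glycerophosphate dehydrogenases Gpd1 (-0.56) and Gpd2 (-0.39). Beside Slc25a1, 1 of 6 genes of citrate formation and use was higher, Acaca (0.74) of fatty acid synthesis, and 2 were lower, among them the malic enzyme Me1 (-0.97). With the adipocyte markers as a covariate Acaca turned to -0.17. Beside Slc25a20, 1 of 5 genes of the carnitine shuttle was called, Cpt1b (-0.24), which turned to 0.04 with median centring.

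Beside Slc25a39, 2 of 6 glutathione genes were higher, the lipid peroxide reductase Gpx4 (0.34) and the synthetase Gss (0.21). That count was 0 with median centring by limma (5 at an unadjusted p under 0.05), 1 with no filter or with the adipocyte covariate, and 4 with Cy5 alone. It stayed at 2 with centring over kept probes only. Of 11 genes of heme and iron-sulfur cluster synthesis, 3 were higher, led by Alas2 (0.62), the erythroid start of heme synthesis, and Cpox (0.34). In the same list 2 were lower, Alas1 (-0.23), the start of heme synthesis in other cells, and Glrx5 (-0.20), and with median centring they turned to 0.08 and 0.09. With median centring the higher calls of this list fell from 3 to 0 by limma (5 at an unadjusted p under 0.05), and with the adipocyte covariate to 1, where Alas2 read -0.04. Centring over kept probes only gave 4 higher and 0 lower.

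Beside Slc25a44, 4 of 7 genes of branched-chain amino acid breakdown were higher, led by the dehydrogenase subunits Bckdhb (0.46) and Dbt (0.44), and Dld (-0.20) was lower but turned to 0.08 with median centring. With the adipocyte covariate 1 gene of that list was called higher. Beside the carriers of cofactors, 2 of 9 genes of coenzyme A, thiamine and S-adenosylmethionine synthesis were higher, Pank1 (0.65) and Coasy (0.59), both of coenzyme A synthesis, and 0 were lower by limma (0 also at an unadjusted p under 0.05). With Agilent's own log ratio 1 gene of that list was called lower.

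Of 14 mitochondrial membrane transporters outside the family, 2 were higher, Sfxn3 (0.56) and Sfxn4 (0.43; well above background on 4 of 6 WT arrays) of the sideroflexins, and 3 were lower, led by Brp44l (-0.43), a subunit of the mitochondrial pyruvate carrier, and Vdac1 (-0.40), the outer membrane pore. With the adipocyte covariate 0 of these 14 were called higher by limma (1 at an unadjusted p under 0.05) and 1 was called lower. With median centring in place of loess, 0 of the 78 genes of these 10 lists were called lower by limma, and 2 had an unadjusted p under 0.05 in that direction. That setting moved the median of all genes to 0.14. The values of Gcat, Cpt1b, Alas1, Glrx5 and Dld under it lay above 0 but below that median. Centring over kept probes only called 2 shuttle enzymes lower. It also called 1 gene of citrate formation and use and 1 of glutamate, ornithine and proline lower, and none of the other lists.

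Of the 42 carriers, 11 were not tested because no probe passed the filter. Slc25a2, Slc25a15, Slc25a18, Slc25a21, Slc25a23, Slc25a31, Slc25a41, Slc25a43 and Slc25a48 reached this level on no array. These include the ornithine carriers Slc25a2 and Slc25a15, the ATP-Mg carriers Slc25a23 and Slc25a41, and Slc25a31, a translocase of testis. Slc25a10, the dicarboxylate carrier, was well above background on 2 UCP1-TG and 0 WT arrays, and Slc25a30 on 3 WT and 0 UCP1-TG arrays. Carriers well above background on no array were not detectable here, and Slc25a10 and Slc25a30 were detected on too few arrays to be tested. No fold is given for any of the 11.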

How the data were processed

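The deposited scanner files hold for both channels the intensity of each spot and of its local background, per the file headers, beside flags and the log10 ratio of processed signals. Their software was Agilent Feature Extraction 10.5.1.1, also per the submitters' processing notes. The value table that the authors deposited was read as log2 values. Each column had a median of 7.58, and across probes its correlation with log2 Cy5 was 0.996 to 0.999 and with log2 Cy3 0.988 to 0.992. How it was background corrected, centred and normalized is not stated in these sources, and it served as an alternative. No per-sample column was unmapped.

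Mean signals were corrected with normexp (offset 50), and log2 ratios Cy5 over Cy3 were normalized by loess within arrays in limma 3.58.1 (R 4.3.3), controls and outlier spots (278 to 377 per array) having weight 0. The dyes were not swapped. A probe was kept (22716 were) if its Cy5 signal was well above background on 6 or more arrays, and the brightest kept probe stood for a gene. Groups were compared with lmFit and eBayes on all arrays without a covariate. The limma fit, but not the steps before it, was tested on simulated log ratios. The labels call the samples individual mice, each counted as 1 replicate.

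All carriers were counted; some genes are not reported here by name. Those called with a difference of at least 0.5 are given in every array, and of each list the 2 largest differences past the threshold in each direction are named. The members, lists and substrate groups were chosen with earlier results of these data known. Promoters are RefSeq sequences of GRCm38.p6, probe coordinates are mm9 per the file headers, and genes carry the names of the array design.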

Additional observations from a re-analysis of the deposited data

Results flagged for a closer look

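For the 31 tested carriers and Ucp1, 64 groups of 6 or 7 arrays were searched for an array at the edge of its group whose gap to the nearest array was a large part of the range of the group. The gap had to exceed 0.625 of the range for 6 arrays and 0.568 for 7. Chance gives about 1 in 20 groups, and 5 of the 64 passed. Slc25a36 passed in both groups: UCP1-TG 2 was lowest at -0.53, with the next array at -0.12 (0.715 of the range), and WT 6 was highest at 0.28, with the next at 0.10 (0.64 of the range). Without UCP1-TG 2 the difference of Slc25a36 was -0.15 and without WT 6 it was -0.18, neither past the threshold (limma, adjusted p = 0.083 and 0.12).

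For Slc25a22, UCP1-TG 2 was lowest at -0.26 with the next array at 0.21 (0.649 of the range), and without it the difference was 0.24 and was called (limma, adjusted p = 0.036). For Slc25a44, WT 5 was lowest at -0.26 with the next array at -0.06 (0.874 of the range). For Ucp1, the array labelled wild type 4 was highest at 0.45 with the next at -2.82 (0.699 of the range).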

How the results depend on the processing

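As reported, 2 carriers were higher and 6 lower. Median centring without loess gave 1 higher and 1 lower, the same centring over kept probes only (chosen after seeing the data) gave 2 lower, and the adipocyte covariate gave 1 lower. The slide as a fixed block, and as a random block, gave 4 higher. Leaving out single arrays gave 2 to 4 higher and 4 to 6 lower, with 4 higher without WT 4, UCP1-TG 2 or UCP1-TG 6. Replicate numbers did not pair the arrays (correlations of deviations from -0.23 to 0.23 over 6 numbers), and the replicate block gave 2 higher and 6 lower. The other settings gave 2 or 3 higher and 5 or 6 lower. Slc25a12 minus Slc25a13 turned to 0.043 under both median centrings. Both must give the same gap for every pair, because a shift of a whole array cancels within it. They are still counted separately among the alternatives. Of the other 5 pairs, 4 kept their side of the threshold in all 22 alternatives run, and Slc25a28 minus Slc25a37 in 21, with an adjusted p of 0.05 without WT 3. The cause of these changes was not tested. Without a dye swap, a dye effect that differs between groups was not tested. Dim probes lie near background, which limits small differences there.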
